A study of Mus musculus with 6 samples.

Results

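The EGF family of growth factors and the ERBB receptors that bind them were examined in mouse small intestinal organoids treated with MMK-1, a synthetic peptide agonist of formyl peptide receptor 2 (FPR2). The genes were taken by name, with earlier results of these data known, and all are given whatever their values. They are 7 ligand genes (Egf, Tgfa, Areg, Ereg, Btc, Hbegf and Nrg1) and 3 receptor genes (Egfr, Erbb2 and Erbb3), 10 of the 21397 genes measured. Crypts of adult Fpr2f/f mice on a C57BL/6J background gave the organoids. These mice carry floxed Fpr2 alleles, and no Cre is stated for these cultures, in either group. Control organoids received 0.1% DMSO and MMK-1 organoids received 1 μmol/L MMK-1, both for 5 days, with 3 libraries in each group. For the MMK-1 libraries one label writes the dose in mM, but the protocol text and the methods of the study have μM, which was taken here. Each library pooled organoids of several mice, so the tests measure the spread between pools. The organoids grew in IntestiCult medium, whose growth factors are not listed in the sources used here, and no EGF family protein was measured.

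EGF family ligands are made as membrane-anchored precursors, and metalloproteases such as ADAM10 and ADAM17 cut the soluble factor free. Areg, Tgfa and Egf act through EGFR, Btc, Hbegf and Ereg through EGFR and ERBB4, and the neuregulins through ERBB3 and ERBB4. ERBB2 has no known ligand and signals as the partner of the other receptors, while ERBB3 has a weak kinase and needs a partner to signal. In the intestinal crypt, EGF receptor signaling keeps stem and progenitor cells dividing. Paneth cells, which sit among the stem cells, are a known source of Egf, and cultured crypts are usually fed EGF protein.

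The ligands share a module with 6 cysteines that binds the receptor. The coding bases of that module, from the first to the last cysteine codon, are shown for 5 ligands because they are what makes these genes a family, and the cysteine codons are in capitals. They were read 5′ to 3′ on the coding strand from GRCm38 with GENCODE vM21, and in each gene an intron splits the module between 2 coding exons. The stretches span chr5:91143614-91144364 (+) for Areg, chr5:91362421-91366197 (-) for Btc, chr6:86263200-86269960 (+) for Tgfa, chr5:91088496-91089111 (+) for Ereg and chr3:129686322-129690850 (-) for Egf.
Areg: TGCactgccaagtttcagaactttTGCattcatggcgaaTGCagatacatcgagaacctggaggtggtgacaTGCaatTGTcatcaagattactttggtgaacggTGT
Btc: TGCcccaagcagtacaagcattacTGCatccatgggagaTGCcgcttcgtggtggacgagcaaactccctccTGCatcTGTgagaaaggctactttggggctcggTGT
Tgfa: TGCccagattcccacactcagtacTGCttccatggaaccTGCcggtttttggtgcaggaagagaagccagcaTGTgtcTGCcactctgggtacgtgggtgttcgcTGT
Ereg: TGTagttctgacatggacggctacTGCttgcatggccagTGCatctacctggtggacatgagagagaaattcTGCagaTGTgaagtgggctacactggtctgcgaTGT
Egf: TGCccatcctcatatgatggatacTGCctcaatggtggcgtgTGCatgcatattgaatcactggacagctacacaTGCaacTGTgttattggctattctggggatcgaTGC

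Apart from the cysteines, which all have in common, the modules differ at many positions. The Areg, Btc, Tgfa and Ereg stretches hold 108 bases each and that of Egf holds 111, with 1 more codon between the second and the third cysteine than the others. Translated from these bases, with the cysteines counted, Btc and Tgfa shared 19 of 36 residues (52.8%), the highest identity among the 10 pairs. Areg and Ereg shared 12 of 36 (33.3%), the lowest. The Areg precursor has 248 residues, that of Tgfa 159 and that of Egf 1217. Areg and Ereg are nevertheless neighbors on chromosome 5 (GRCm38), with Ereg at 91074622 to 91093646 and Areg at 91139599 to 91148432, both on the plus strand. Epgn lies before them and Btc after them on the minus strand (91357261 to 91402994), so that 4 ligand genes stand within 376 kb. The other ligand genes lie on other chromosomes: Tgfa on 6 (86195223 to 86275719, plus strand), Egf on 3 (129677565 to 129755316, minus strand), Nrg1 on 8 (31814551 to 32884029, minus strand) and Hbegf on 18. Egfr (16752203 to 16918158) and Erbb2 (98412470 to 98437716) lie on the plus strand of chromosome 11, and Erbb3 (128567523 to 128589652) on the minus strand of 10.

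The levels below are FPKM values as deposited, which divide fragments by gene length and library total. Ranks, shares and ratios between genes therefore depend on the length used for each. It was 12844 bases for Egfr and 23207 for Nrg1, compared with 4998 for Erbb2 and 5999 for Erbb3. The fragments behind them were recovered from the steps of the values, and library totals lay between 35512739 and 37537463. MMK-1 replicate 3 stood apart from its group: chi-square divided by degrees of freedom, taken over the genes of a pair of libraries, was 36.6 and 31.3 against replicates 1 and 2, compared with 3.57 between those and at most 4.97 within control. The epithelial marker Epcam lay between 377 and 415 FPKM in every library, but of the 8 epithelial markers 3 were called higher and 3 lower, and their summed level was 3713 to 3753 FPKM in control and 2757 to 2974 FPKM with MMK-1. Of the markers of other cells, Pdgfra of mesenchyme and Ptprc of leukocytes were at or under 0.0146 FPKM, while others were measurable: Vim was at 4.83 ± 0.216 FPKM in control and 3.94 ± 0.760 with MMK-1, Pdgfrb at 1.06 to 1.15 and 0.235 to 0.308, Cd68 at 3.17 ± 0.400 and 1.15 ± 0.403 and Itgam at 2.36 ± 0.0677 and 0.938 ± 0.135 FPKM (mean ± SD, n = 3, or ranges). The groups differed in markers of epithelial cell types. All 9 stem cell markers tested rose, from a summed 78.00 to 80.4 FPKM in control to 418 to 447 FPKM with MMK-1, and the stem cell receptor Lgr5 went from 1.92, 2.03 and 2.14 FPKM to 22.1, 21.2 and 19.6 FPKM. Of 8 Paneth cell markers tested, 7 rose and 1 fell (summed 407 to 448 FPKM in control and 1293 to 1421 FPKM with MMK-1), among them Defa26, which entered the test only through the MMK-1 group, with lysozyme (Lyz1) at 60.04 ± 0.154 and 222 ± 9.40 FPKM (SD, n = 3). Of 12 enterocyte markers, 11 fell and 1 rose (summed 10148 to 10267 FPKM and 5428 to 5822 FPKM), with Alpi at 119 ± 2.61 and 60.6 ± 3.93 FPKM. Of the genes tested, 48.5% were called higher and 24.7% lower with MMK-1, and the median gene shifted by 0.134 on the log2(FPKM + 1) scale. Under upper-quartile scaling, which brings the median to -0.00465, the calls were 34.7% higher and 37.1% lower.

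Areg was the most abundant of the 10 genes and had the largest change of the 8 tested. It encodes amphiregulin, a low-affinity EGFR ligand made by epithelial cells. Its levels were 52.0, 54.0 and 51.9 FPKM in control and 106, 111 and 111 FPKM with MMK-1. The lowest MMK-1 library was well above the highest control library, and replicates within a group lay close together. Mean levels were 52.7 ± 1.17 and 109.6 ± 2.80 FPKM (SD, n = 3), a ratio of 2.08. The change on the log2(FPKM + 1) scale was 1.04 with a standard error of 0.0393, a 95% interval of 0.95 to 1.13 and an adjusted p of 8.2e-08 (limma-trend, Benjamini-Hochberg over all genes tested). That change exceeded those of 97.1% of the genes tested. Areg rested on 2359 to 2463 fragments in control and 4591 to 5029 with MMK-1. It was the only member tested with a change of 2-fold or more on this scale and an unadjusted p no higher than 0.05. Of the genes tested, 3.39% passed these limits upward and 3.65% downward. The study used the same limits on fold changes of its own, while the scale used here understates the changes of low genes. With a pseudocount of 0.1, 676 genes passed upward and 486 downward, compared with 358 and 385. With upper-quartile scaling the change was 0.89 and with a correction for GC content 0.98, which left no member past the fold threshold. Here, as for every gene below, fewer cells of a type and less RNA per cell cannot be told apart, and the part of the stem cell, Paneth cell and enterocyte shifts in the result was not tested.

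**Figure D1:**
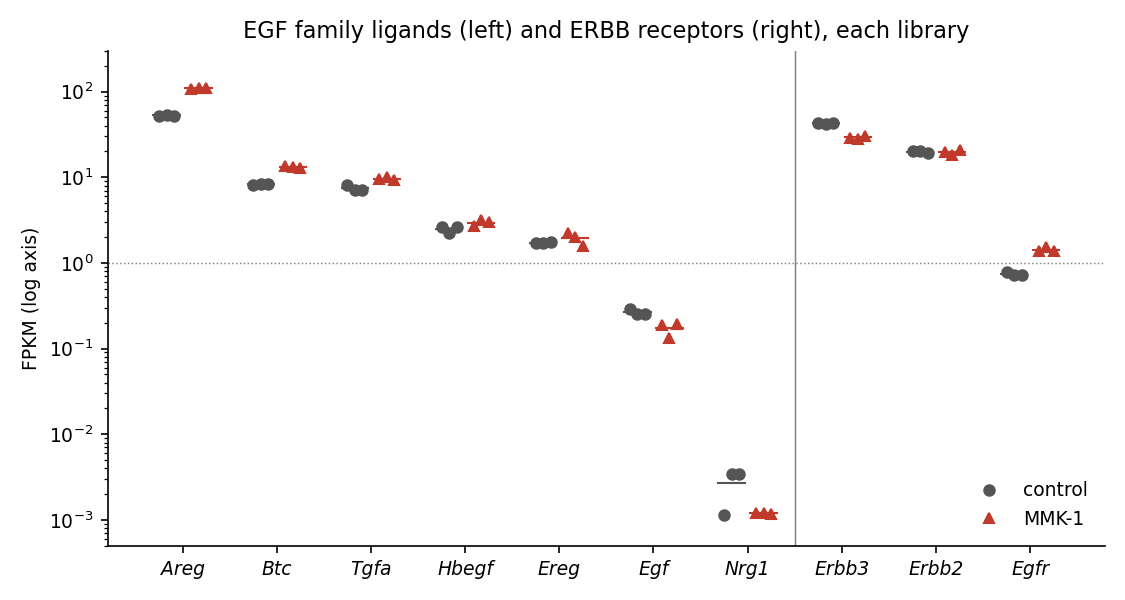
FPKM (log axis) of the 7 ligand genes (left of the vertical line) and 3 receptor genes (right) in each library, control as grey circles and MMK-1 as red triangles, replicates 1 to 3 from left to right, with short bars at the group means and a dotted line at 1 FPKM. Areg, Btc, Tgfa, Hbegf and Egfr had all MMK-1 points above all control points, Erbb3 and Egf had them below, and Ereg, Erbb2 and Nrg1 overlapped. Among all genes tested, the groups did not overlap for 76.8%.

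Btc, which encodes betacellulin, a ligand of EGFR and ERBB4, rose to a smaller extent. Its levels were 8.22, 8.29 and 8.27 FPKM in control and 13.5, 13.2 and 12.7 FPKM with MMK-1. The control libraries were almost alike, and the groups did not overlap, as was the case for 76.8% of genes tested. The means were 8.26 ± 0.0385 and 13.1 ± 0.416 FPKM (SD, n = 3), a ratio of 1.59. The log2(FPKM + 1) change was 0.61 (standard error 0.0435, 95% interval 0.51 to 0.71, adjusted p = 3.4e-06 by limma-trend), from 885 to 895 fragments in control and 1357 to 1382 with MMK-1. The transcript is poor in GC (37.7%, the lowest of the 10), and a correction for GC content chosen after seeing the data brought the change down to 0.24 (adjusted p = 0.022). Within libraries, the ratio of Areg to Btc levels was 6.33, 6.51 and 6.28 in control and 7.86, 8.42 and 8.77 with MMK-1, higher in every MMK-1 library than in any control library.

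Tgfa encodes transforming growth factor alpha, a high-affinity EGFR ligand. Its levels were 8.19, 7.16 and 7.10 FPKM in control and 9.54, 10.02 and 9.37 FPKM with MMK-1. All MMK-1 libraries were above the highest control library, and control replicate 1 was nearest to them. The means were 7.48 ± 0.615 and 9.64 ± 0.335 FPKM (SD, n = 3), and the log2(FPKM + 1) change was 0.33 (standard error 0.0604, 95% interval 0.19 to 0.47, adjusted p = 0.0011 by limma-trend). The change was 0.19 under upper-quartile scaling, still past the threshold (adjusted p = 0.023).

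Hbegf encodes heparin-binding EGF-like growth factor, which acts on EGFR and ERBB4. Its levels were 2.62, 2.23 and 2.60 FPKM in control and 2.72, 3.13 and 2.98 FPKM with MMK-1. The groups did not overlap, but the gap between the highest control library and the lowest MMK-1 library was small. The log2(FPKM + 1) change was 0.18 (standard error 0.0682, 95% interval 0.02 to 0.33, adjusted p = 0.041 by limma-trend), and 54.6% of the genes tested had a smaller change. The call was lost under 5 of the other ways of processing and when control replicate 2, control replicate 3, MMK-1 replicate 2 or MMK-1 replicate 3 was left out (0.13 to 0.20, adjusted p from 0.053 to 0.15). Upper-quartile scaling gave 0.0625 (adjusted p = 0.42).

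Ereg, the neighbor of Areg, did not pass the test. It encodes epiregulin, an EGFR and ERBB4 ligand. Its levels were 1.70, 1.70 and 1.77 FPKM in control and 2.21, 2.01 and 1.58 FPKM with MMK-1. MMK-1 replicates 1 and 2 were above the control libraries and replicate 3, the library that stood apart, was below them. The log2(FPKM + 1) change was 0.10 with a 95% interval of -0.09 to 0.29 (adjusted p = 0.30 by limma-trend), and the two-sided exact permutation p was 0.40. Without MMK-1 replicate 3 it was 0.19 (adjusted p = 0.018), with upper-quartile scaling -0.00199 (adjusted p = 0.98), and with the GC correction -0.22 (adjusted p = 0.0041), so neither a direction nor its absence is given for this gene. It shares 152 bases with an antisense gene, Gm19610, which held 40 to 50 fragments in control and 79, 49 and 36 with MMK-1. The strand used in counting is not stated, and reads of the pair cannot be told apart there. The ratio of Areg to Ereg levels was 30.5, 31.8 and 29.4 in control and 48.1, 55.4 and 70.7 with MMK-1.

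Egf and Nrg1 were too low for the test, which took genes with a mean of at least 1 FPKM. Egf, the founding member of the family, was at 0.289, 0.255 and 0.256 FPKM in control and 0.188, 0.133 and 0.196 FPKM with MMK-1. Every MMK-1 library was below every control library, and 76.8% of genes tested likewise had groups that did not overlap. The summed Paneth cell markers were higher with MMK-1. In all, 144 fragments were counted in control and 90 with MMK-1, a ratio per library total of 0.647 with an exact 95% interval of 0.491 to 0.848 that covers counting error alone. The exact permutation p over libraries was 0.10, the smallest that 3 against 3 can give. Without the filter on low values the log2(FPKM + 1) change, which understates the change of a low gene, was -0.11 (adjusted p = 0.015 by limma-trend). On fragments, limma-voom gave -0.64 (adjusted p = 0.05). An antisense gene in the locus, 6330410L21Rik, held 1 fragment in all libraries together. Nrg1 encodes neuregulin 1, a ligand of ERBB3 and ERBB4 that is known mainly from stromal cells in the intestine. It was at the detection limit, with 1, 3 and 3 fragments in control and 1 in each MMK-1 library, and a ratio of 0.444 (0.0740 to 1.94, counting error alone). A difference was not detectable at this depth.

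Of the receptors, Erbb3 fell, Egfr rose and Erbb2 did not pass the test. Erbb3 encodes the neuregulin receptor that partners ERBB2. Its levels were 42.6, 42.4 and 43.5 FPKM in control and 28.8, 28.1 and 30.6 FPKM with MMK-1. The groups were far apart compared with the spread within them. The means were 42.9 ± 0.594 and 29.2 ± 1.31 FPKM (SD, n = 3), a ratio of 0.681, from 9559 to 9763 fragments in control and 6062 to 6828 with MMK-1. The log2(FPKM + 1) change was -0.54 (standard error 0.0441, 95% interval -0.64 to -0.44, adjusted p = 7.6e-06 by limma-trend), and only 9.03% of genes tested had a lower value. It lay between -0.69 and -0.51 under all alternatives run.

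Egfr, the receptor of most of the ligands above, had the lowest level of the 3 receptors. It was at 0.782, 0.724 and 0.731 FPKM in control and 1.36, 1.54 and 1.36 FPKM with MMK-1. All control libraries were under 1 FPKM and all MMK-1 libraries above it, so the gene entered the test only through the MMK-1 group and its call is no support for a rise of the group of genes. The means were 0.745 ± 0.0315 and 1.42 ± 0.106 FPKM (SD, n = 3), a ratio of 1.90, with 349 to 376 fragments in control and 619 to 712 with MMK-1. The log2(FPKM + 1) change, which understates the change of a low gene, was 0.47 (standard error 0.0623, 95% interval 0.33 to 0.61, adjusted p = 0.00015 by limma-trend). Without the filter it was also 0.47 (adjusted p = 0.00061), and a fit to the fragments with limma-voom gave 0.93. The antisense gene Egfros, which overlaps the locus, held 1 fragment in all 6 libraries together.

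Erbb2, the partner receptor without a ligand of its own, was at 20.5, 20.2 and 19.2 FPKM in control and 19.5, 18.4 and 20.9 FPKM with MMK-1. The groups overlapped, with the highest and the lowest of the 6 libraries both in the MMK-1 group. The log2(FPKM + 1) change was -0.03 with a 95% interval of -0.15 to 0.10 (adjusted p = 0.68 by limma-trend, exact permutation p = 0.70). Under upper-quartile scaling it was -0.18 (adjusted p = 0.010) and with the GC correction -0.11 (adjusted p = 0.035), while it was 0.0163 when MMK-1 replicate 2 was left out. Erbb2 overlaps Mien1 on the other strand by 9 bases.

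In all, 8 of the 10 genes passed the filter on low values, of which 5 were called higher (Areg, Btc, Tgfa, Hbegf and Egfr), 1 lower (Erbb3) and 2 neither way (Ereg and Erbb2). The count of genes called higher includes Egfr, which passed the filter only through the MMK-1 group. Among all genes tested, 48.5% were called higher and 24.7% lower. The median change was 0.33 over the 5 ligands tested, of which 4 were called higher, beside 0.134 over all genes. Without MMK-1 replicate 3 the counts were again 5 and 1, with Ereg in place of Hbegf. The changes of the 8 genes under each way of scaling are set side by side in the plot of intervals.

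**Figure D2:**
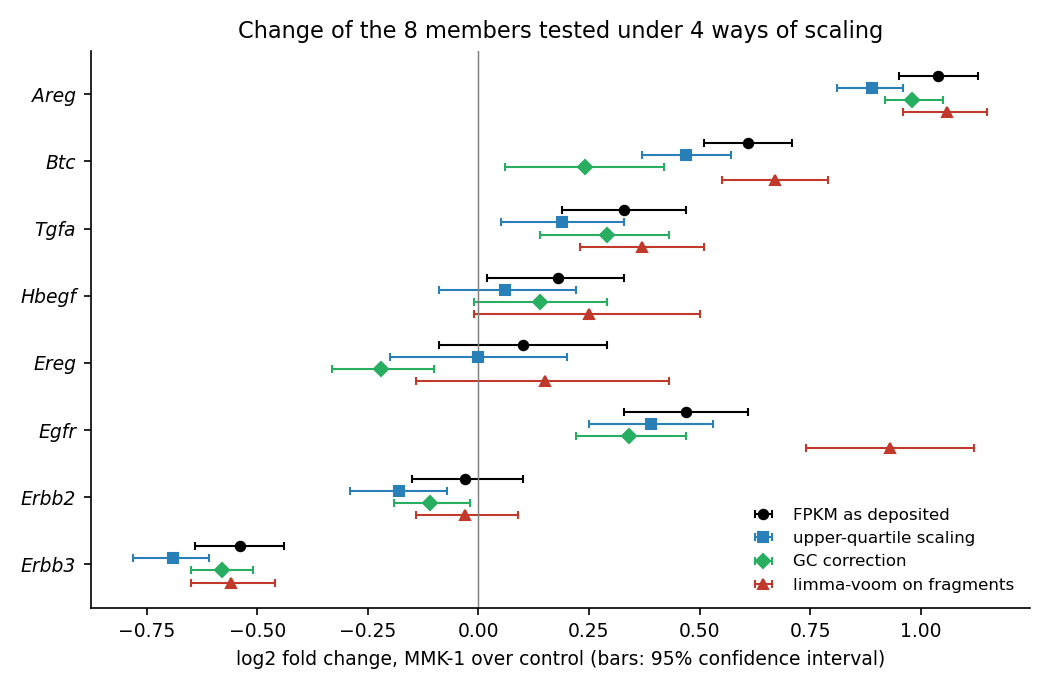
Change of the 8 genes tested, as log2 fold change of MMK-1 over control with 95% confidence intervals, for the FPKM values as deposited (black circles), upper-quartile scaling (blue squares), a correction for GC content (green diamonds) and limma-voom on fragments (red triangles). Areg, Btc, Tgfa and Egfr stayed above 0 and Erbb3 below 0 in all 4, whereas intervals for Hbegf, Ereg and Erbb2 reached or crossed 0 in some.

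The order of the mean levels did not change between the groups: Areg, Erbb3, Erbb2, Btc, Tgfa, Hbegf, Ereg, Egfr, Egf and Nrg1, from highest to lowest. Neighbors in this order did not overlap between their libraries in either group, and the closest were Btc and Tgfa in control and Ereg and Egfr with MMK-1. Mean levels in control ran from 52.7 FPKM (Areg) to 0.00268 FPKM (Nrg1), a wider range than any change with MMK-1. Some neighbors differed by less than the change of Areg, as Btc and Tgfa did in control (8.26 and 7.48 FPKM). Areg alone made up most of the ligand transcripts.

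The summed level of the 7 ligands was 73.1, 73.6 and 71.9 FPKM in control and 135, 139.5 and 138 FPKM with MMK-1, a ratio of 1.89. Without Areg the sum was 20.2 ± 0.717 and 27.8 ± 0.875 FPKM (SD, n = 3), a ratio of 1.38. The share of Areg in the ligand sum was 72.3% ± 1.05 in control and 79.7% ± 0.780 with MMK-1, and the shares of Btc (11.3% and 9.56%), Tgfa (10.3% and 7.02%), Hbegf (3.41% and 2.14%) and Ereg (2.37% and 1.41%) were smaller with MMK-1. A smaller share does not by itself mean a lower level, since Btc, Tgfa and Hbegf had higher levels with MMK-1.

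The summed level of the 3 receptors moved the other way, with 63.8, 63.4 and 63.5 FPKM in control and 49.7, 48.1 and 52.9 FPKM with MMK-1, a ratio of 0.790. Erbb3 held 67.4% ± 1.01 of the receptor sum in control and 58.1% ± 0.307 with MMK-1, Erbb2 31.4% ± 0.990 and 39.1% ± 0.634, and Egfr 1.17% ± 0.0453 and 2.84% ± 0.330. Egfr thus remained a small part of the receptor transcripts. The ratio of Erbb3 to Egfr levels was 57.6 ± 2.71 in control and 20.7 ± 2.20 with MMK-1, and that of Erbb3 to Erbb2 levels was 2.15 ± 0.102 and 1.49 ± 0.0322. Such ratios are taken within a library and do not depend on the scaling between libraries, but their size depends on the gene lengths used. The ligand sum divided by the receptor sum was 1.14, 1.16 and 1.13 in control and 2.71, 2.90 and 2.61 with MMK-1.

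**Figure D3:**
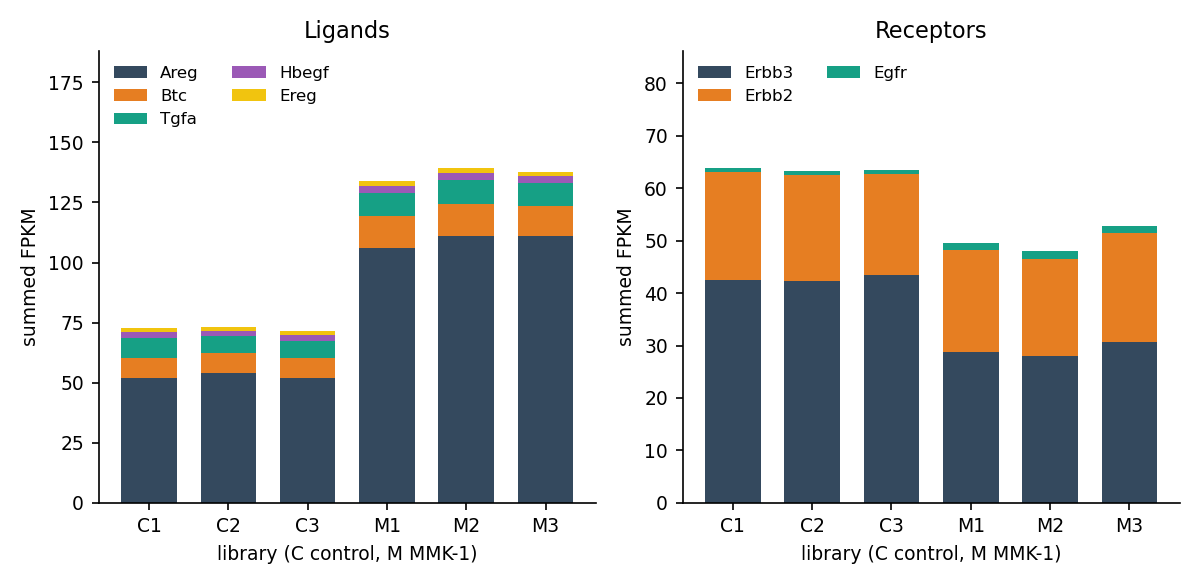
Summed FPKM of the ligand genes (left) and the receptor genes (right) in each library (C control, M MMK-1, replicates 1 to 3), stacked by gene. Egf and Nrg1, at under 0.3 FPKM, are too low to be drawn. Ligand bars stood at 71.9 to 73.6 FPKM in control and 135 to 139.5 FPKM with MMK-1, most of it Areg, while receptor bars stood at 63.4 to 63.8 FPKM and 48.1 to 52.9 FPKM, and the drop lay in the Erbb3 segment.

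Other members of the family were rare, apart from Nrg4. Nrg4 encodes neuregulin 4, an ERBB4 ligand, and its levels were 6.21, 5.88 and 6.40 FPKM in control and 2.85, 2.64 and 2.92 FPKM with MMK-1. The groups were far apart, and the gene fell by 0.91 on the log2(FPKM + 1) scale (standard error 0.0546, adjusted p = 1.2e-06 by limma-trend). Its mean levels were 6.16 ± 0.261 and 2.80 ± 0.145 FPKM (SD, n = 3), a ratio of 0.455, and limma-voom on fragments gave a change of -1.13. The gene overlaps Fbxo22 on the other strand over 4212 bases. Fbxo22 held 2430 to 2859 fragments in the 6 libraries and Nrg4 held 315 to 794, and without the strand of counting, reads of the pair cannot be told apart there. Erbb4, its receptor, had 1 fragment in all 6 libraries together, so that Egfr, Erbb2 and Erbb3 were the ERBB receptors detected. Epgn (epigen), which neighbors Ereg, had 2, 1 and 0 fragments in control and 4, 7 and 5 with MMK-1, a ratio per library total of 5.52 with an interval of 1.58 to 29.6 that covers counting error alone. Nrg2 had 2 fragments in control and 1 with MMK-1.

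Genes that release the ligands were taken from a list of 12 proteases, their cofactors and an inhibitor, of which 10 were tested. Of these, 5 rose and 0 fell, where 48.5% and 24.7% of all genes tested did, with a median change of 0.18. Under upper-quartile scaling, where Timp3 was not tested and 9 genes were, 3 were higher and 3 lower. With the GC correction 5 were higher and 2 lower, so that no common direction is given for the list. The 3 largest rises were those of Mmp7, Timp3 and Adam10. Mmp7, the protease matrilysin, can cut membrane-bound Hbegf and is also a Paneth cell marker, and its levels were 1.25, 1.15 and 1.61 FPKM in control and 7.32, 6.66 and 6.95 FPKM with MMK-1 (log2 change 1.78, adjusted p = 2e-07 by limma-trend). Timp3, an inhibitor of ADAM17 and other metalloproteases, was at 0.219 ± 0.0203 FPKM in control and 1.85 ± 0.0588 FPKM with MMK-1 (log2 change 1.22, adjusted p = 3.5e-07 by limma-trend) and entered the test only through the MMK-1 group, so that its call supports nothing about the list. Its ratio of means was 8.45, compared with 5.24 for Mmp7, and its change was 2.61 with a pseudocount of 0.1, where that of Mmp7 was 2.32. Adam10, the main sheddase of Egf and Btc, was at 23.9 ± 0.737 and 35.2 ± 3.04 FPKM (log2 change 0.54, adjusted p = 7.6e-05 by limma-trend), with a change of 0.33 under the GC correction. Adam17, the main sheddase of Areg, Tgfa, Hbegf and Ereg, also rose, from 6.94 ± 0.141 to 9.09 ± 0.279 FPKM (log2 change 0.34, or 0.20 under upper-quartile scaling), and was named after its value was seen. Without MMK-1 replicate 3 6 genes of the list were called higher and 1 lower.

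Genes that restrain the receptors by degradation, dephosphorylation or direct binding changed in both directions. Of 18 listed, 15 were tested, 8 rose (53.3%) and 2 fell (13.3%), next to 48.5% and 24.7% of all genes tested, with a median change of 0.18. Lrig1, which promotes the breakdown of ERBB receptors and also marks crypt stem cells, had levels of 5.69, 5.64 and 5.52 FPKM in control and 12.2, 12.2 and 12.7 FPKM with MMK-1. It rose by 1.02 on the log2(FPKM + 1) scale (standard error 0.0437, adjusted p = 1.7e-07 by limma-trend), the one gene of the list past a 2-fold change on that scale. The change of Lrig1 was under 2-fold with upper-quartile scaling (0.87) and with the GC correction (0.97). Socs4 was at 9.59, 9.76 and 10.01 FPKM in control and 20.8, 21.02 and 12.3 FPKM with MMK-1 (log2 change 0.78, adjusted p = 0.0028 by limma-trend), with MMK-1 replicate 3 nearer to control than to its own group. The change of Socs4 was 0.44 with the GC correction and 1.02 without that library. Eps15, an endocytic adaptor of EGFR, was at 11.1 ± 0.154 and 15.5 ± 2.09 FPKM (log2 change 0.44, or 0.20 with the GC correction and 0.29 under upper-quartile scaling). The genes that fell were Lrig3, a relative of Lrig1, at 15.1 ± 0.689 and 11.9 ± 0.322 FPKM (log2 change -0.32) and Hgs, which sorts internalized receptors, at 26.9 ± 0.904 and 23.4 ± 1.13 FPKM (log2 change -0.20, or -0.35 under upper-quartile scaling).

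Of 42 genes that relay the signal inside the cell, 38 were tested, 21 rose (55.3%) and 6 fell (15.8%), with a median change of 0.16, next to 48.5% and 24.7% called among all genes. The balance depended on the scaling: of 39 tested under upper-quartile scaling 10 were higher and 15 lower, and 14 and 10 were with the GC correction. The rises were led by Pik3r3, a regulatory subunit of PI3-kinase, at 1.45, 1.42 and 1.27 FPKM in control and 5.24, 4.88 and 4.75 FPKM with MMK-1 (log2 change 1.32, adjusted p = 2.1e-07 by limma-trend). The adaptor Crk, which also rose, was at 17.6 ± 0.271 and 26.8 ± 0.988 FPKM (log2 change 0.58). Genes of the RAF-ERK arm led the falls: the scaffold Ksr1 at 6.23 ± 0.120 and 3.97 ± 0.326 FPKM (log2 change -0.54), the kinase Araf at 15.98 ± 0.126 and 11.5 ± 0.670 FPKM (log2 change -0.44) and Mapk3, which encodes ERK1, at 201 ± 5.55 and 162 ± 5.89 FPKM (log2 change -0.31, or -0.47 under upper-quartile scaling). The arm did not move as a block, since the kinase gene Map2k1 rose, from 43.7 ± 1.44 to 57.6 ± 0.484 FPKM (log2 change 0.39, or 0.24 under upper-quartile scaling), and was named after its value was seen.

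The annotation of the table assigns 82 genes to the KEGG ErbB signaling pathway, of which 66 were tested, 38 were called higher (57.6%) and 12 lower (18.2%). Egfr and Elk1 are among the genes called higher and had a mean under 1 FPKM in control. Under upper-quartile scaling 27 of 67 tested were higher and 24 lower, and with the GC correction 30 and 21. The median change was 0.19. On the log2(FPKM + 1) scale, which understates the changes of low genes, Areg, Pik3r3 and Cdkn1b were past a 2-fold change, all upward. Cdkn1b, which encodes the cell cycle inhibitor p27, was named after its value was seen. Counts of this kind share genes with the lists above and stand beside a background in which 73.2% of all genes were called.

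**Figure D4:**
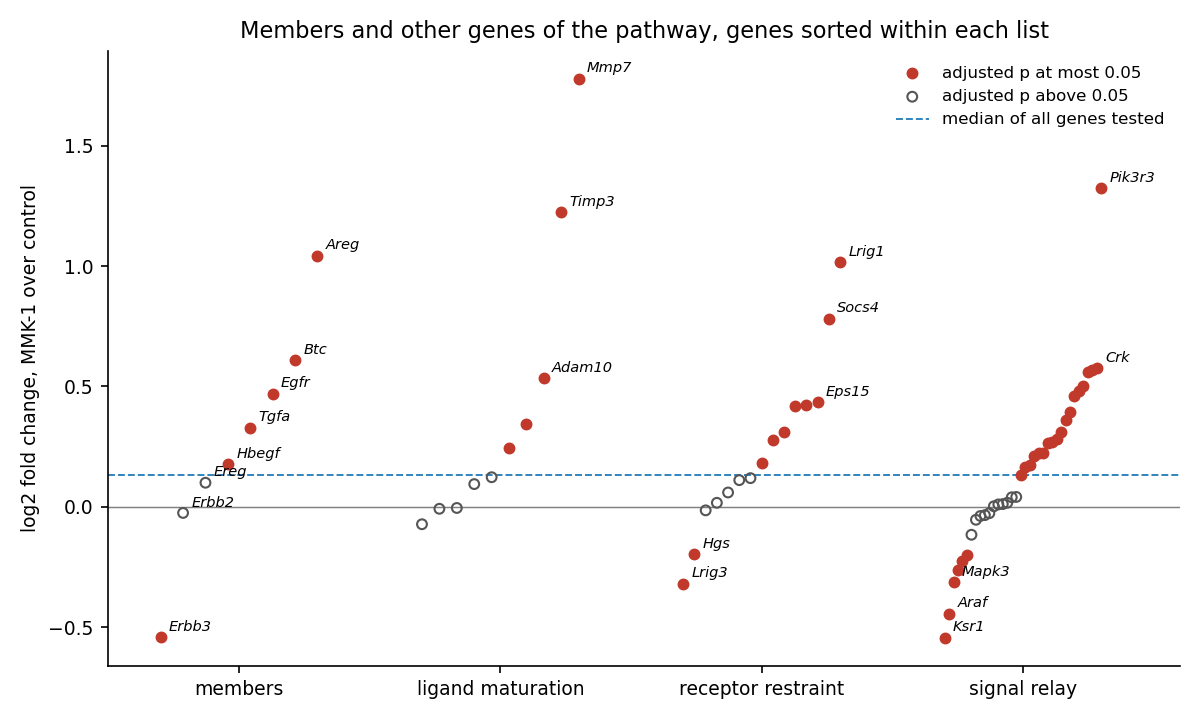
Change of the genes tested, other than a few not reported here (log2 fold change, MMK-1 over control), sorted within the 10 ligand and receptor genes (members, 8 tested) and the lists of ligand maturation, receptor restraint and signal relay. Filled red points have an adjusted p of at most 0.05, open points do not, and the dashed line is the median of all genes tested (0.134). Each list has genes above and below the median, with Mmp7, Pik3r3, Timp3, Areg and Lrig1 highest and Ksr1 and Erbb3 lowest on this scale, on which a low gene such as Timp3 ranks lower than with a pseudocount of 0.1.

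The promoter of Areg is shown because Areg was the member past the 2-fold threshold. The RefSeq table (GRCm38.p6) gives 250 bases before and 50 bases after each start, and the stretch from chr5:91139488-91139595 (+) runs up to near the start of the gene, with the letters TGACGTCA, the cAMP response element, in capitals.
Areg promoter: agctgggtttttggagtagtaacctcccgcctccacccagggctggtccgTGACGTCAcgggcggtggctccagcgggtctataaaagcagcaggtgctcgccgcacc

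The element begins 61 bases before the start. Searched on both strands, TGACGTCA stood in 588 of 32851 windows (1.79%), and among 7 windows of the 6 genes with an entry it was found in that of Areg alone. The letters TGANTCA, bound by AP-1, stood in 2565 windows (7.81%) and in 0 of the 7. These are matches of letters, and no binding was measured.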

How the data were processed

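RNA of 3 control and 3 MMK-1 organoid cultures was sequenced. The authors deposited FPKM values, fragments divided by gene length and library total. The submitters' processing notes name HISAT2, HTSeq, R 3.2.0, DESeq2 and mm10 without a role; the strand setting is not given in the sources used here. Whole fragments were recovered from the FPKM steps (tolerance 0.002 fragment) for all 20676 genes above 0, and listed genes held 99.69% to 99.71% of library totals.

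Groups were compared with limma 3.58.1 (limma-trend) in R 4.3.3 on log2(FPKM + 1), pseudocount 1, over the 10551 genes with a mean of at least 1 FPKM. Benjamini-Hochberg adjustment covered all of them, and calls were made at an adjusted p of at most 0.05. Permutation tests were exact and two-sided. Alternatives were upper-quartile scaling (75%), TPM, no filter, a pseudocount of 0.1, a replicate block, limma-voom on fragments (mean of at least 10), leaving out each library and a fold threshold of 1.5, and, chosen after seeing the data, a GC correction by local regression (span 0.3, 96.3% of genes). The scripts were tested on simulated data.

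The members and lists were chosen with earlier results of these data known. All 10 members are named, with up to 3 genes in each direction per list by size of change and every other family gene above 0, of 5 listed; goblet, enteroendocrine, tuft and endothelial lists were used as markers too. A few signal relay genes that the rule or the lists include are counted but not reported singly here. Sequences and positions came from RefSeq and GENCODE vM21 on GRCm38, the assembly of mm10, through Python 3.11.15, numpy 2.4.6, pandas 2.3.3, scipy 1.17.1, Biopython 1.88 and matplotlib 3.10.9. The table's other columns are annotation.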

Additional observations from a re-analysis of the deposited data

How the results depend on the processing

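Areg, Btc, Tgfa and Egfr stayed higher and Erbb3 stayed lower past the threshold under every alternative, at 0.89 to 1.08, 0.24 to 0.67, 0.19 to 0.39, 0.34 to 0.93 and -0.69 to -0.51 on the log2 scale. In the main test Egfr passed the filter only through the MMK-1 group. Of the 10 genes, 1 was lower as reported, 2 were lower under upper-quartile scaling (Erbb3 and Erbb2), without the filter and with limma-voom on fragments (Erbb3 and Egf), and 3 with the GC correction (Erbb3, Erbb2 and Ereg); 1 passed the 2-fold threshold as reported, 0 did under upper-quartile scaling and with the GC correction, and 2 passed a fold of 1.5. Egf enters the test only without the filter or with limma-voom, and the cause of the other changes was not tested. Of the other family genes, 2 were called without the filter instead of 1, since Epgn then entered the test. Ereg reversed under upper-quartile scaling (-0.00199) and with the GC correction (-0.22), and Erbb2 reversed without MMK-1 replicate 2 (0.0163). Leaving out each library in turn gave 0.0308 to 0.19 for Ereg, -0.0698 to 0.0163 for Erbb2 and 0.13 to 0.22 for Hbegf. Over the named genes, 283 values under an alternative kept direction and side of the threshold, 9 lost the call, all of them Hbegf, 3 gained one and 3 reversed.

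Replicate numbers did not pair the libraries: deviations of the same number correlated at 0.0253, -0.04 and 0.0279 between groups, and control replicate 1 correlated best with MMK-1 replicate 2 (0.0627). A replicate block gave 5024 genes higher and 2543 lower, compared with 5118 and 2606, and 0.18 for Hbegf (adjusted p = 0.070 by limma-trend). Few fragments limit Egf, Nrg1, Epgn, Nrg2 and Erbb4, and intervals on them cover counting error alone.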

Other observations

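Among all genes tested 48.5% were called higher and 24.7% lower. Of 8 goblet cell markers 5 were called higher and 3 lower (2 and 3 under upper-quartile scaling), and of 8 enteroendocrine markers 6 were called higher and 0 lower (4 and 0), with summed levels of 309.9 to 327 FPKM in control and 443 to 454 FPKM with MMK-1. Tuft cell markers were under the filter, at a summed 1.13 to 1.24 FPKM and 1.72 to 1.98 FPKM, and endothelial markers did not exceed a summed 0.307 FPKM. Of the 8 immune cell markers, the 2 tested, Cd68 and Itgam, fell (the mean of Itgam was under 1 FPKM with MMK-1). Of the mesenchyme markers only Vim was tested (adjusted p = 0.049 by limma-trend), and its groups overlapped.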
